A study of Mus musculus with 8 samples.

Results

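A set of 40 genes of ribosome biogenesis and RNA polymerase I was followed through thymic epithelial cells (TEC) of the mouse, in 8 single-cell RNA libraries. The members were taken by symbol from the gene lists of the deposited matrices, and all 40 were found among the 27514 genes that both gene lists held. All mice were WT C57 B6 (CD45.2). E13.5 TEC were total TEC, sorted as DAPI- EpCAM+ CD45-. At the later fetal ages (E15.5 and E17.5) and in the newborn (NB) the added Ly51+ UEA-1- gate took cortical TEC (cTEC). Adult cTEC came from the same gate in 2 libraries, and adult mTEC, the medullary lineage, from the Ly51- UEA-1+ gate in another 2. By the study's methods NB mice were 0 to 2 days old and adults 4 to 6 weeks old, of either sex. E13.5, E15.5, NB and the first adult cTEC and mTEC libraries formed data set 1, and E17.5 with the second adult pair formed data set 2, captured separately. The labels did not say whether libraries came from separate or pooled animals, so no p-value below can be read as a spread between animals. A single library stood for each age before the adult, so the error of the age test is mostly departure from a straight line. Tests by cell cycle class use the difference between classes within each library. Permutation p-values of the correlations come from reordering the libraries.

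Ribosomes are assembled in the nucleolus. There RNA polymerase I copies the ribosomal DNA into a long precursor, small nucleolar ribonucleoproteins of the box C/D and box H/ACA classes modify it, and assembly factors cut and fold it into the small and large subunits. Many of these genes are known targets of the Myc family of transcription factors, which bind as dimers with Max to a DNA hexamer called the E-box, and dividing cells in general need more ribosomes. The study asked how TEC growth changes from fetal to adult life and what Myc has to do with it. The members were therefore compared by age, by lineage, by cell cycle class and with the RNA levels of Myc and Mycn.

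A total of 25434 epithelial-like cells of 28334 deposited were used, 492 to 8350 per library, with 2151147 UMIs (unique molecular identifiers, 1 per captured RNA molecule) in adult cTEC 1 and up to 89998087 in E17.5 cTEC. Median UMIs per cell ranged from 3952 to 11386. Defining markers of the gates were compared first. Psmb11, a cortical proteasome subunit, was at 659.7 and 1394.5 CPM (the UMIs of a gene scaled to a common total per library) in the adult cTEC libraries and at 3.85 and 8.57 in adult mTEC, while Aire, a medullary regulator, was at 9.30 and 2.72 against 435 and 399. A UMI of Psmb11 or Prss16 was found in 66.1% and 79.6% of adult cTEC cells against 25.05% and 29.5% of adult mTEC cells, at median depths of 3952 and 7062 against 9499 and 11386 UMIs. The whole list of 9 mTEC markers, all detected in each adult library, summed to 6263 and 1318 CPM in adult cTEC 1 and 2 and to 9420.3 and 5084 in adult mTEC, so on that list adult cTEC 1 lay above adult mTEC 2, mostly through Ccl21a at 5417 against 2893 CPM. The list of 8 cTEC markers summed to 13341 and 20096 CPM in adult cTEC and to 1199 and 905 in adult mTEC. Myeloid markers summed to 388 CPM in adult cTEC 1, to 33.9 in adult cTEC 2 and to 485.5 and 619 in adult mTEC. From E13.5 to NB they summed to between 1.97 and 4.84 CPM. Mesenchymal markers summed to 511 and 318 CPM in the adult cTEC libraries, with 6 of 8 detected, to 99.7 and 69.1 in adult mTEC and to between 8.36 and 33.8 from E13.5 to NB. Fetal thymi were disaggregated with trypsin, and newborn and adult thymi with a Liberase digest and a density step, so age and cell preparation cannot be told apart between the fetal and the later libraries. A list of 20 stress and immediate early genes summed to between 2736 and 3989 CPM in the fetal libraries and between 10076 and 25712 in the newborn and adult ones. The part of these markers and stress genes in the results below was not tested.

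Promoter windows of 300 bases (250 before and 50 after the annotated start, from RefSeq on GRCm38.p6) were at hand for 36 of the 40 members, in 44 windows. The windows of Npm1, Fbl, Bop1 and Rrs1 were not analysed here. The E-box, CACGTG, stood in 6 of the 44 member windows (13.6%), those of Mybbp1a, Nop2, Pes1, Rrn3, Tsr1 and Wdr43, against 7.15% of all 32851 windows and 9.64% of the 13575 windows of genes tested by age. A variant hexamer, CACGCG, was searched on both strands (CGCGTG on the other) and stood in 17 member windows (38.6%) against 9.27% of all windows and 16.5% of those of tested genes. These windows belonged to 15 of the 36 members, as Noc2l and Ubtf each gave 2. The Noc2l windows overlap and hold the same hexamer. An E-box and this variant cannot overlap, while both strand forms of the variant can overlap each other. The windows of 4 members are shown as examples that hold a hexamer: Rrn3, which recruits RNA polymerase I and had 2 E-boxes, and Nolc1, Nhp2 and Bysl, which are described by age, lineage or cell cycle. Neither hexamer was found in the windows of Ncl, Polr1a, Polr1d, Rcl1, Nop56, Nop58, Dkc1 and Wdr12, which are described as often. Capitals mark either hexamer, and each window is written 5′ to 3′ on the strand of its gene.
Rrn3, chr16:13780449-13780748, plus strand: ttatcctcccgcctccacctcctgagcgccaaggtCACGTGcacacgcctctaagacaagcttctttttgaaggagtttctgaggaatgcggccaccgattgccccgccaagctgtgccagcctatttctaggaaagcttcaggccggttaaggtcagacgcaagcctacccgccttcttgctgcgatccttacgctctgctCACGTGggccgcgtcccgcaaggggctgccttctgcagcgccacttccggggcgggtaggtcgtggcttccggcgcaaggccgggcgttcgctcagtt
Nolc1, chr19:46075597-46075896, plus strand: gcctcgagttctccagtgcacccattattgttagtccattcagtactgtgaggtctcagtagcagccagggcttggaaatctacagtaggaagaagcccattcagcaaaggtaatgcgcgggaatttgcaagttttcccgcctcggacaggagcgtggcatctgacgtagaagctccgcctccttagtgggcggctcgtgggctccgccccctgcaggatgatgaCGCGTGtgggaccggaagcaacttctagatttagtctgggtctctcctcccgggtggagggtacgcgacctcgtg
Nhp2, chr11:51619523-51619822, plus strand: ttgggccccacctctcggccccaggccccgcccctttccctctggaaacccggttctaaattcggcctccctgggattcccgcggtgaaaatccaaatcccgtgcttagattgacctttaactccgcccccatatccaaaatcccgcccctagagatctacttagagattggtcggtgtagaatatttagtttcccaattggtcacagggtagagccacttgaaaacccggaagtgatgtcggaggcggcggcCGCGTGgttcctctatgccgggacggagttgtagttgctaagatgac
Bysl, chr17:47611443-47611742, minus strand: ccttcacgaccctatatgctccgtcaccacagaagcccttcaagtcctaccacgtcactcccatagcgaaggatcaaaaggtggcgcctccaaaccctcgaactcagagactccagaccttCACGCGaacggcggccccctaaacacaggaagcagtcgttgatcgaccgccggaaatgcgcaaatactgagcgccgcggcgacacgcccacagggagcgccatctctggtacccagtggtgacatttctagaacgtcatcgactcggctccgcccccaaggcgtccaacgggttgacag
The E-boxes of Rrn3 began 215 and 48 bases before the start, and the variant of Nolc1 25 and that of Bysl 129 bases before it. A match is a run of letters in a reference window, and no binding was measured here.

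E13.5 TEC held the most RNA of the members. Of the 40 genes, 32 (80.0%) had their highest CPM in the E13.5 library, against 24.4% of the 14341 genes tested by age, and none had its lowest there. The members together took 0.833% of all UMIs at E13.5, and their sums from E13.5 to NB, in order of age, were 8326, 5435, 3993 and 5023 CPM. They took 3610 and 3675 CPM in adult cTEC 1 and 2, and 3842 and 3810 in adult mTEC 1 and 2. The sum thus followed no straight course with age, because E17.5 lay below NB and nearer to the adult libraries than to E15.5. Exact 95% binomial intervals were narrow, from 8279 to 8373 at E13.5 and from 3530.5 to 3691 in adult cTEC 1, but they cover counting error only, and a single library stood for each age before the adult. In such sums, fewer cells of a type and less RNA per cell cannot be told apart. Npm1 and Ncl, the members with most UMIs, made up 46.3% of the sum at E13.5 and 28.7% and 30.8% in the adult cTEC libraries. Without these genes the sum went from 4468 CPM at E13.5 to 2574 and 2544 in adult cTEC.

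**Figure D1:**
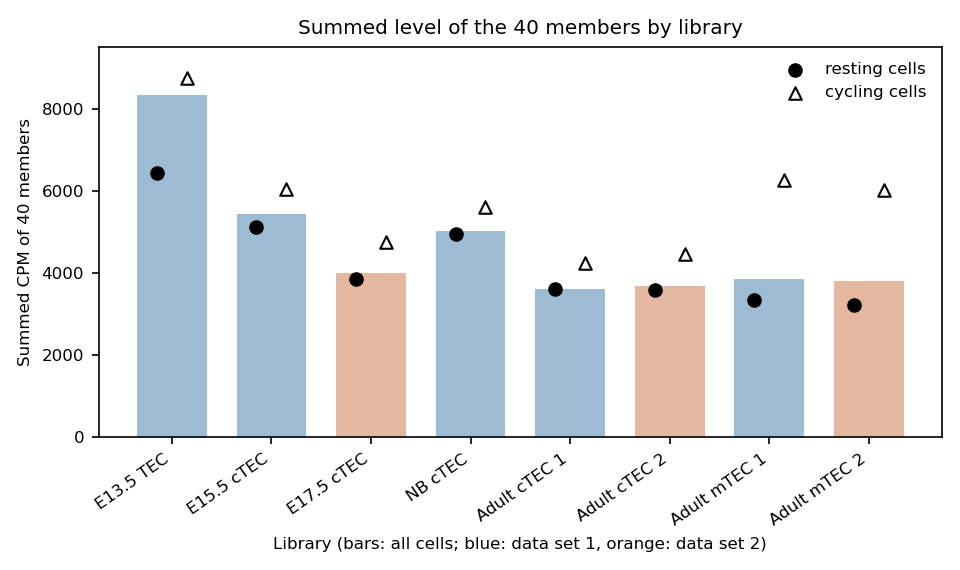
Summed CPM of the 40 members in each library, with bars for all epithelial-like cells, filled circles for resting cells and open triangles for cycling cells. E13.5 TEC stood highest at 8326 CPM, and cycling cells lay above resting cells in each of the 8 libraries.

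Cell by cell the order was similar. Each cell was thinned to 2000 UMIs so that depth could not set the count, which left out 0 to 123 shallower cells per library. The median thinned cell then held 15, 10, 8 and 10 member UMIs from E13.5 to NB. It held 7 in both adult cTEC libraries and 6 in both adult mTEC libraries. The quartiles were 12 and 20 UMIs at E13.5 and 5 and 9 in both adult cTEC libraries, so the ranges between quartiles did not overlap. Cells without a member UMI made up 0 to 0.619% of a library.

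By role, the nucleolar scaffold and helicase genes had the widest range between libraries, from 4370 summed CPM at E13.5 to 1295 and 1316 in adult cTEC. Most of that sum was Npm1 and Ncl, at 2094 and 1764 CPM at E13.5, so the range is mainly theirs. Box H/ACA proteins went from 1098 to 553 and 747 CPM, and the RNA polymerase I genes from 717 to 381 and 388 CPM. Large subunit factors went from 1092 to 694 and 655 CPM. Small subunit factors went from 399 to 254 and 179 CPM, and box C/D proteins from 649.9 to 433 and 389 CPM. All 6 role groups were thus at their highest at E13.5, but the lowest library of the small subunit and box C/D groups was E17.5, at 171 and 248.5 CPM, and the large subunit was lower at E17.5 (616 CPM) than in both adult cTEC libraries.

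**Figure D2:**
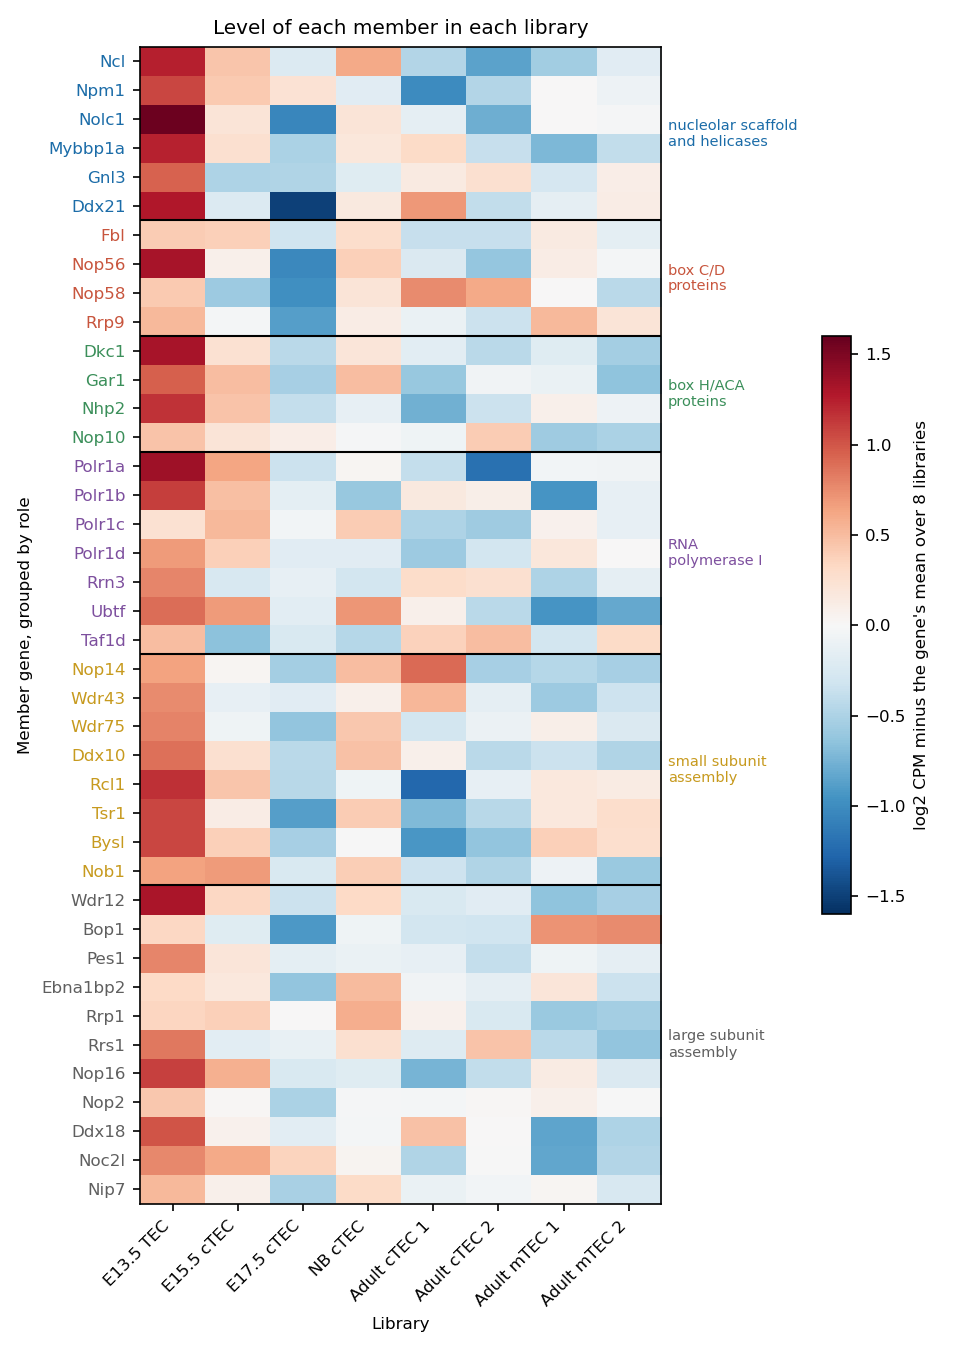
Level of each member (rows, grouped and coloured by role) in each of 8 libraries (columns), as log2 CPM minus the mean of that gene over the libraries. The E13.5 column is the darkest red for 32 of the 40 members, and Nop58 and Nop14 run against it, with their highest levels in adult cTEC 1.

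The fit of age used the E13.5 library and the 5 cTEC libraries, together called the cortical line below, ranked from E13.5 (1) to adult (5), with the data set as a term, and asked for each gene whether log2 level had a slope per rank (edgeR quasi-likelihood test, Benjamini-Hochberg over 14341 genes). E13.5 TEC had no Ly51 or UEA-1 gate, and 248 of its cells lay in a cluster led by Krtdap and Krt5 and 107 in one led by Hhex and Nkx2-1, so gate and age cannot be told apart at the first rank. Npm1 and Polr1a fell with age, and no member rose. Both calls were lost when E13.5, E15.5, E17.5 or either adult cTEC library was left out (adjusted p from 0.076 to 0.20), and that of Polr1a also without NB (0.078) or with adult cTEC limited to cells with Psmb11 or Prss16 (0.059). The slopes themselves lay between -0.48 and -0.37 for Npm1 and between -0.445 and -0.38 for Polr1a when each of the 6 libraries was left out in turn. Without E13.5 the median slope was -0.06 and Nop58 was called higher (0.51, adjusted p = 0.048). These 2 calls among 40 (5.0%) stood beside a background of 2.80% of tested genes lower (402) and 4.78% higher (685), so the share of members called was close to the background. The slopes as a whole leaned one way: 36 of 40 were negative, with a median of -0.16 log2 per rank, where 50.1% of all slopes were negative with a median of 0.00. At an unadjusted p below 0.05, 13 members were lower and 0 higher, beside 12.8% and 14.5% of tested genes. In simulated counts with 200 changed genes and the rest unchanged, the same fit recovered 0 of 200 at a slope of 0.25 per rank and 196 of 200 at a slope of 1. Slopes between these were not simulated, and more than 200 genes were called in the data. The simulation therefore does not set which slopes this fit could call here.

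Npm1 (nucleophosmin, the abundant nucleolar chaperone of ribosomal particles; chr11:33152287-33163206) was at 2094, 1335, 1163 and 879.5 CPM from E13.5 to NB. It was at 495.6 and 719 CPM in adult cTEC and at 999.6 and 944 in adult mTEC. Both adult cTEC libraries thus lay below each earlier library, and below both adult mTEC libraries. Its slope was -0.45 log2 per rank (SE 0.09, adjusted p = 0.034). Npm1 has near-identical processed copies in the genome, so reads shared with them cannot be placed with certainty.

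Polr1a (the largest, catalytic subunit of RNA polymerase I; chr6:71909053-71984935) was at 24.7, 14.955, 7.59 and 9.90 CPM from E13.5 to NB, and at 7.44 and 4.21 CPM in adult cTEC. The adult values rest on 16 and 17 UMIs. Its slope was -0.41 (SE 0.09, adjusted p = 0.042). Adult mTEC held 9.38 and 9.31 CPM, above both adult cTEC libraries.

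The next largest slopes missed the threshold. Nop16, a large subunit factor, went from 51.6 CPM at E13.5 through 35.7, 20.4 and 21.2 to 14.4 and 18.3 in adult cTEC, with 26.5 and 20.6 in adult mTEC (slope -0.38, SE 0.09, adjusted p = 0.0504). Nhp2, a core protein of the box H/ACA particles, went from 309.6 through 191, 107 and 127 to 81.8 and 109.7 CPM, with 147 and 131 in adult mTEC (slope -0.37, SE 0.10, adjusted p = 0.073). In both genes E13.5 was the highest library and adult cTEC 1 the lowest of all 8. Bysl, which acts late in small subunit maturation, had 30.0, 18.5, 9.87, 14.2, 7.44 and 9.16 CPM in the same order (slope -0.36, SE 0.10, adjusted p = 0.088). Rcl1, another small subunit factor, had 49.9, 30.3, 16.3, 21.2, 9.30 and 20.3 CPM (slope -0.39, SE 0.13, adjusted p = 0.13). Its 2 adult cTEC libraries differed by more than E17.5 and NB did, on 20 and 82 UMIs.

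**Figure D3:**
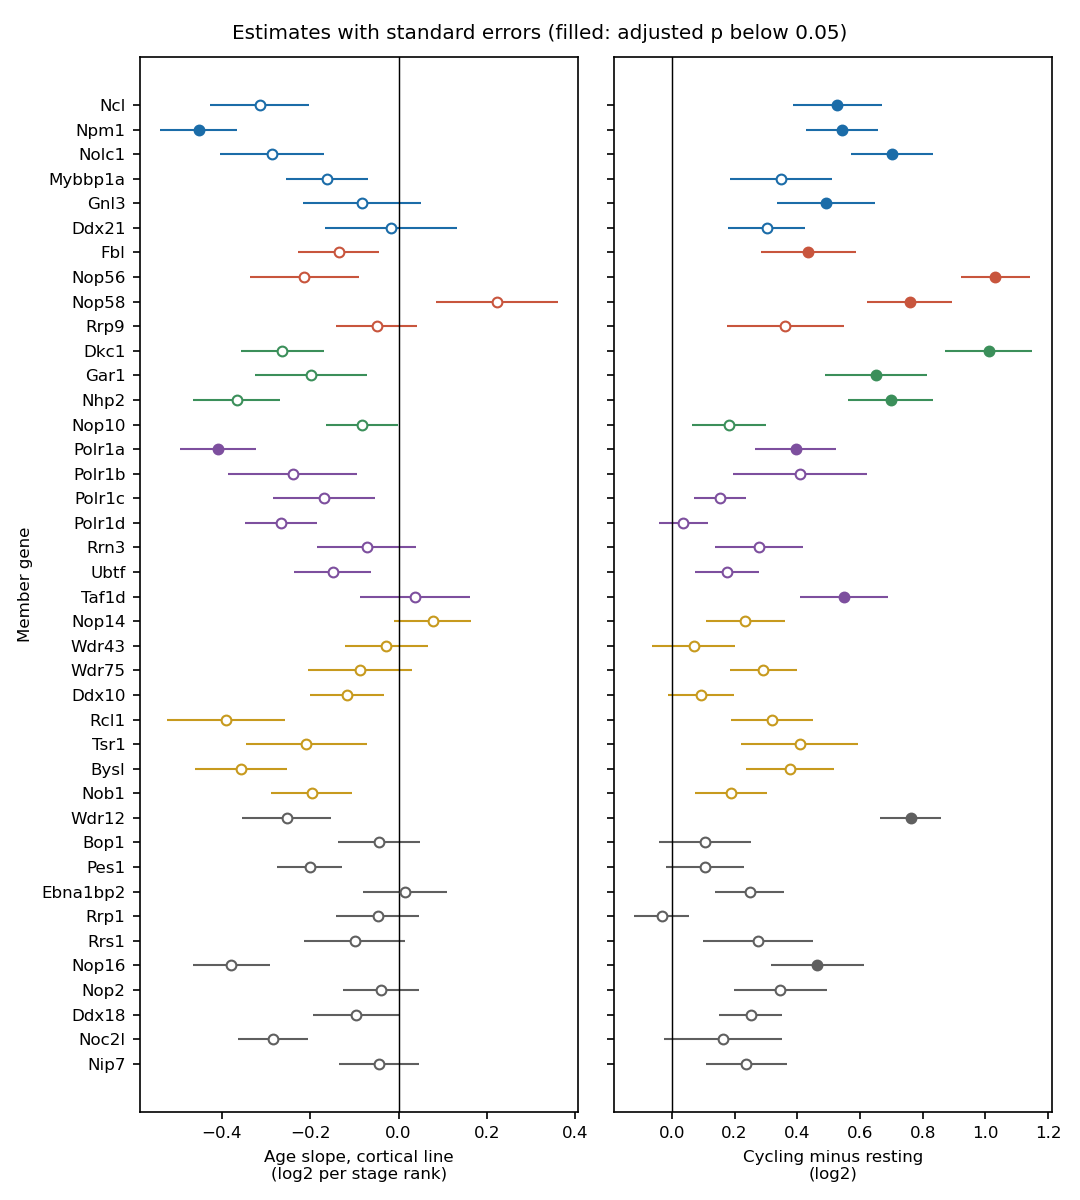
Estimates for the 40 members with bars of 1 SE, coloured by role: left, the slope of log2 level per stage rank in the cortical line, and right, the log2 difference of cycling from resting cells over 8 libraries. Filled points passed an adjusted p of 0.05, 2 of 40 at left and 14 of 40 at right.

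Not all members followed. Nop58, a core box C/D protein, had 162, 81.3, 61.2 and 139.7 CPM from E13.5 to NB, and 205 and 184 CPM in adult cTEC, which were its highest levels, with 121 and 89.8 in adult mTEC (slope 0.22, SE 0.14, adjusted p = 0.34). Fbl, the methyltransferase of the same particle, had 206, 203.5, 126 and 189 CPM from E13.5 to NB, 121 and 121.5 in adult cTEC and 173 and 140.2 in adult mTEC, a range of 1.71-fold. Nop10, the smallest box H/ACA protein, was at 566, 475, 446 and 407 CPM from E13.5 to NB and at 394 and 546 in adult cTEC, against 278 and 290.2 in adult mTEC. Among the assembly factors Rrp1, the large subunit member with most UMIs, had 272, 279, 215 and 321 CPM from E13.5 to NB, 225 and 179.9 in adult cTEC, and 141 and 146 in adult mTEC. Wdr43, a small subunit processome protein, had 95.1, 51.2, 49.5 and 59.3 CPM from E13.5 to NB, 81.4 and 51.0 in adult cTEC and 37.5 and 44.5 in adult mTEC. Slopes for Rrp1 and Wdr43 were -0.05 and -0.03, each smaller than its SE of 0.09.

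Polr1d (a subunit that RNA polymerases I and III share; chr5:147077050-147111597), the polymerase member with the highest mean level, had 351, 285, 193 and 194 CPM from E13.5 to NB. It had 147 and 179 CPM in adult cTEC and 249.2 and 220.1 in adult mTEC (slope -0.26, SE 0.08, adjusted p = 0.10). Ubtf, which loads the ribosomal DNA, had a slope of -0.15 and Rrn3 one of -0.07, and Taf1d, a subunit of the promoter selectivity complex, one of 0.04, all with adjusted p of 0.32 or more.

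Within data set 1 the members stepped down from E13.5 to E15.5, where 37 of 40 were lower and 36 had a 95% counting interval of the ratio wholly below 1. By a threshold of 1.5-fold on CPM + 1, 23 of 40 members were lower and 0 higher, against 18.0% of tested genes lower. Single libraries give no replicate check, so these steps carry no test. Ddx21, an RNA helicase that couples polymerase activity and processing, stepped from 118 to 41.7 CPM, 2.82-fold lower (95% interval 2.62 to 3.05). Nolc1, which escorts box particles, stepped from 157 to 61.0, 2.57-fold lower (2.41 to 2.74), and Nop56 from 246 to 104, 2.37-fold lower (2.26 to 2.49). Polr1c, the other subunit shared with RNA polymerase III, was the 1 member whose interval lay above 1, at 91.7 and 110.4 CPM.

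From E15.5 to NB the members split. By that threshold 4 were lower (12.6% of tested genes) and 1 higher (12.8% of tested genes), and the median member was 1.01-fold lower. The 4 were Npm1, Nhp2, Nop16 and Polr1b, with Npm1 1.52-fold lower (1.49 to 1.54) and Nop16 1.68-fold lower (1.51 to 1.88). Nop58 was at 1.72 times its E15.5 level (1.63 to 1.81).

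From NB to adult cTEC 1 the members were lower again, with 13 past the 1.5-fold threshold (19.7% of tested genes) and 2 past it upward (25.8% of tested genes). Ncl (nucleolin) stepped from 1135 to 541 CPM, 2.10-fold lower (1.98 to 2.23), and Rcl1 from 21.2 to 9.30 CPM, 2.28-fold lower (1.46 to 3.77). Nop58, Ddx21, Taf1d, Rrn3, Wdr43, Gnl3, Nop14 and Ddx18 had intervals wholly above 1.

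Data set 2 gave a different step. From E17.5 to adult cTEC 2, 26 of 40 members were higher and 14 lower. Past 1.5-fold, 3 were lower (16.1% of tested genes) and 4 higher (20.7% of tested genes). Ncl, from 639.6 to 412 CPM, was 1.55-fold lower (1.48 to 1.63) and Npm1, from 1163 to 719 CPM, 1.62-fold lower (1.56 to 1.68), while Nop58 stood at 3.01 times its E17.5 level (2.79 to 3.26) and Ddx21 at 2.14 times (1.80 to 2.54). Npm1, Ncl, Polr1c, Polr1d, Ubtf, Rrp1 and Noc2l had intervals wholly below 1 at the adult step of both data sets. Of the E17.5 cells, 2015 belonged to a cluster led by haemoglobin genes. They were kept, and without them 2 members were again called by age, with a median slope of -0.15.

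The share of cycling cells also differed with age. By a proliferation score over 97 genes of S and G2M phase, none of them a member, 75.3% of E13.5 cells were cycling (score above 0). The shares from E15.5 to NB were 28.8%, 14.2% and 11.0%, and they were 1.42% and 8.04% in adult cTEC, and 10.9% and 13.8% in adult mTEC. In resting cells alone the members summed to 6433, 5112, 3838 and 4936 CPM from E13.5 to NB, and to 3593 and 3579 CPM in adult cTEC, so the earlier libraries kept their order and stayed above both adult cTEC libraries. The fit of age on resting cells called 0 members by edgeR's quasi-likelihood test, beside 1.10% of tested genes lower, and 8 members were lower and 1 higher at an unadjusted p below 0.05, beside 10.5% and 13.6% of tested genes. Npm1 and Polr1a had slopes of -0.37 and -0.35 there (adjusted p of 0.068 and 0.085). The median slope was -0.09 over the members, with 30 of 40 negative, and 0.00 over all genes.

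Relative to all their RNA, cycling cells held more of the members than resting cells of the same library. They were also deeper, with median UMIs of 7486 to 18621 against 3896 to 10503.5, and doublets among them were not tested. In the fit over 8 libraries with the library as a block, 14 of 40 members were higher in cycling cells and 0 lower, against 9.70% of 16866 tested genes higher and 22.1% lower. The count was 6 without E13.5, 9 without E15.5 and 9 when cycling was called from G2M genes alone. The median member was 0.33 higher on the log2 scale where the median tested gene was -0.22, and 39 of 40 estimates were positive. Rrp1 was the exception at -0.03 (SE 0.09).

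The largest differences were those of Nop56 and Dkc1. Nop56, a core box C/D protein (chr2:130274430-130279313), was higher by 1.03 log2 in cycling cells (SE 0.11, adjusted p = 1.73e-05). Over all cells it was at 246, 104, 48.2 and 128 CPM from E13.5 to NB, 83.7 and 64.1 in adult cTEC and 107 and 96.1 in adult mTEC. Resting cells held 167, 83.1, 38.4 and 116 CPM from E13.5 to NB, and cycling cells 263, 142, 95.95 and 212. In the adult, resting and cycling levels were 78.3 and 279.6 CPM in cTEC 1, 59.5 and 102 in cTEC 2, 85.2 and 211 in mTEC 1 and 71.5 and 188 in mTEC 2. Cycling cells were thus higher in 8 of 8 libraries, and the cycling sum of adult cTEC 1 rests on 7 cells.

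Dkc1 (dyskerin, the pseudouridine synthase of box H/ACA particles; chrX:75095854-75109777) was higher by 1.01 (SE 0.14, adjusted p = 0.000163), also in 8 of 8 libraries, though in adult cTEC 1 by only 34.86 against 34.95 CPM. Over all cells it was at 97.3, 46.4, 29.1 and 44.7 CPM from E13.5 to NB, 34.9 and 29.0 in adult cTEC and 34.2 and 26.8 in adult mTEC. Resting and cycling levels were 63.6 and 105 CPM at E13.5 and 19.4 and 54.4 in adult mTEC 2. Nop58 was higher by 0.76 (SE 0.14, adjusted p = 0.00126) and Wdr12, of the PeBoW complex of the large subunit, by 0.76 (SE 0.10, adjusted p = 8.18e-05). Each was higher in cycling cells of 7 of 8 libraries, the exception being adult cTEC 1.

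Among the other called members, 4 of 6 scaffold genes passed (Nolc1 at 0.70, Npm1 at 0.54, Ncl at 0.53 and Gnl3, nucleostemin, at 0.49). Of the box proteins, Nhp2 at 0.70, Gar1 at 0.65 and Fbl at 0.44 passed, which made 3 of 4 in each class. RNA polymerase I gave 2 of 7, Taf1d at 0.55 and Polr1a at 0.39, while Polr1d was at 0.04 (SE 0.08) and Polr1c at 0.15 (SE 0.08). Of the large subunit factors 2 of 11 passed, Wdr12 and Nop16 at 0.46. None of the 8 small subunit factors passed (edgeR quasi-likelihood), 4 of them at an unadjusted p below 0.05.

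**Figure D4:**
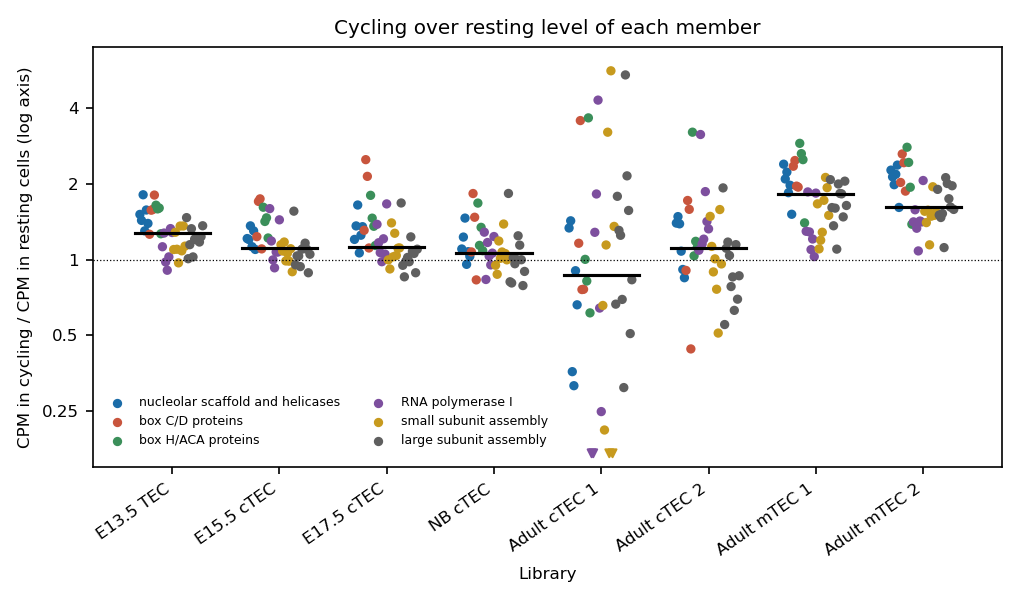
CPM in cycling cells divided by CPM in resting cells for each member in each library, on a log axis, coloured by role, with a bar at the median. Triangles at the bottom of the adult cTEC 1 column mark the 4 members with no UMI in its 7 cycling cells, and the 2 adult mTEC columns lie wholly above 1.

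The size of the cycling difference varied between libraries. The summed members in cycling over resting cells stood at ratios of 1.36, 1.18, 1.24 and 1.14 from E13.5 to NB. In adult cTEC they were 1.18-fold (95% interval 1.03 to 1.34) and 1.24-fold (1.19 to 1.31). Adult mTEC stood apart at 1.88-fold (1.85 to 1.91) and 1.87-fold (1.86 to 1.89), and there 40 of 40 members were higher in cycling cells in each library, where 32.3% and 31.5% of all genes were. In NB cTEC 27 of 40 members and 42.7% of all genes were. After thinning to 2000 UMIs the mean cell held 12.3 member UMIs in cycling and 6.41 in resting cells of adult mTEC 1, and 11.6 and 6.11 in those of adult mTEC 2, against 11.0 and 9.96 in NB cTEC. Cycling and resting cells were not matched by cluster. In adult mTEC 2, 468 cells formed a cluster with Ccna2 and Cdk1 among its top genes, apart from clusters led by Ccl21a or S100a8. The part of mTEC type in these ratios was not tested.

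A test of whether the cycling difference itself changed in adults of both lineages called 1 of 40 members, Dkc1, which was 0.74 higher on the log2 scale (SE 0.17, adjusted p = 0.0185). It did not pass without E15.5, E17.5, NB or either adult mTEC library, and leaving out adult cTEC 2, adult cTEC 1 or E13.5 raised the count to 16, 7 and 5. Of all tested genes 0.783% were called higher and 6.21% lower. The median over the members was 0.44, and over all genes -0.23. When adult mTEC were set against the 6 libraries of the cortical line, a contrast chosen after these values were seen, 22 of 40 members had a larger cycling difference in mTEC and 0 a smaller one, against 5.28% of tested genes larger. The median was 0.58, and 9 of 11 large subunit factors, 4 of 6 scaffold genes and 1 of 7 polymerase genes were among those called. So were 56 of 86 ribosomal protein genes and 35 of the other 110 pathway genes. Within the cortical line alone 0 members passed by edgeR's quasi-likelihood test, 1 at an unadjusted p below 0.05, with a median of -0.19. Of all 13517 genes tested there, 3 were higher and 4 lower, with a median of -0.17. Cycling adult cTEC numbered 7 and 43 cells.

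In the adult the lineages were compared over 4 libraries with the data set as a block. Bysl and Bop1 were lower in cTEC than in mTEC, and 0 members were higher, against 20.8% of 15626 tested genes lower and 10.9% higher, a smaller share of members than of genes at large. Both calls were lost when any 1 of the 4 libraries was left out. The median member differed by -0.06 on the log2 scale and the median gene by -0.14. Both data sets gave the same sign for 31 of 40 members, with 16 higher in cTEC and 15 higher in mTEC. The summed members of all cells lay between 3610 and 3842 CPM in the 4 adult libraries.

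Bop1, the partner of Pes1 and Wdr12 in the PeBoW complex (chr15:76452989-76477277), was at 19.99 and 19.6 CPM in adult cTEC and at 40.2 and 41.2 in adult mTEC, which lay above its 30.7, 21.4, 12.9 and 23.4 CPM from E13.5 to NB (difference -1.11, SE 0.40, adjusted p = 0.032). Its partners did not pass. Pes1 was at 27.0 and 22.8 CPM in cTEC and 28.2 and 26.9 in mTEC (-0.22, SE 0.40, adjusted p = 0.73), and Wdr12 at 26.0 and 27.2 against 19.8 and 21.4, after 76.9, 38.9, 24.4 and 38.5 from E13.5 to NB (0.30, SE 0.40, adjusted p = 0.62). Bysl (chr17:47599331-47611492) was at 7.44 and 9.16 CPM in cTEC and 18.5 and 17.1 in mTEC (-1.16, SE 0.44, adjusted p = 0.040).

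Rcl1, at 9.30 and 20.3 CPM in cTEC against 24.97 and 24.5 in mTEC, and Tsr1, a GTPase-like factor of the small subunit, at 6.97 and 8.42 against 12.8 and 13.8 (and 23.9, 12.4, 6.19 and 15.1 from E13.5 to NB), did not pass (differences of -0.86 each, adjusted p of 0.13 and 0.16). Among resting cells Bysl and Bop1 differed by -0.997 and -0.93 and no longer passed (adjusted p of 0.089 and 0.078). Nop58 (1.10) and Ddx18 (0.97) were higher in cTEC there and 0 members lower, beside 11.1% and 22.6% of 15405 tested genes, with a median of 0.14 over the members and -0.13 over all genes. Resting adult mTEC held 3339 and 3218 summed CPM, below the 3593 and 3579 of resting adult cTEC, while cycling mTEC held 6271 and 6022 against 4229 and 4454.

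By the study's own measurements, GFP-tagged Myc protein was highest in TEC at E13.5 and at background level in the adult. Bulk Myc RNA did not fall with age there, and the study proposes control after transcription. No protein was measured in these libraries, so Myc RNA alone was compared with the members over the cortical line. It was at 16.1, 17.1, 17.3 and 26.8 CPM from E13.5 to NB, at 36.7 and 45.8 in adult cTEC, and at 55.0 and 25.8 in adult mTEC (slope 0.37 per rank, adjusted p = 0.055). Across the 6 cortical libraries 35 of 40 members had a negative Pearson r with Myc on log2(CPM + 1), with a median of -0.44 against -0.06 over 14340 genes. The most negative was Npm1 at r = -0.86 (exact permutation p = 0.0278 over 720 orders, Spearman's rho -0.94, p = 0.0167) and the highest Nop58 at r = 0.69 (exact permutation p = 0.146, rho 0.54, p = 0.297). At an unadjusted p below 0.05 there were 2 members (5.0%) with Myc, beside 16.99% of all genes. No member passed after adjustment over all genes, the smallest adjusted p being 0.28. With the adult cTEC libraries left out, the 2 farthest from the median of Myc, Npm1 stayed at -0.81 over the other 4 and the median member moved to -0.14, so for most members the relation rests on the adult libraries. The stress list above, which does not hold Myc, was like Myc higher in each newborn and adult library than in each fetal one, and its part in this relation was not tested.

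Mycn, with far fewer UMIs, had the opposite sign. It was at 6.22, 1.06, 1.36 and 0.519 CPM from E13.5 to NB. Adult cTEC 1 held 0 UMIs, which allows up to 1.39 CPM, and adult cTEC 2 held 0.248 CPM, while adult mTEC held 5.11 and 2.23 (slope -1.21 per rank in the cortical line, adjusted p = 0.047). At an unadjusted p below 0.05 there were 9 members (22.5%) with Mycn, beside 17.46% of all genes. Of the 40 members 39 had a positive r with it, the median being 0.61 against 0.04 over all genes. Over all 8 libraries the median was 0.33, with 33 of 40 positive. Npm1 was highest at r = 0.94 (exact permutation p = 0.00278, adjusted p = 0.22, rho 0.94, p = 0.0167), then Nop16 and Pes1 at 0.90 each. All r and rho took Mycn in adult cTEC 1 at 0 CPM, and adult cTEC 2 held 1 UMI of it. Within counting error adult cTEC 1 could rank anywhere below E13.5. Without E13.5 and adult cTEC 1, the 2 farthest libraries, Npm1 stayed at 0.92 over the other 4 and the median member dropped to -0.09. These r values share the same libraries, depth and total, members are not independent of each other, and no value was computed within a data set, which held 4 and 2 cortical libraries.

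**Figure D5:**
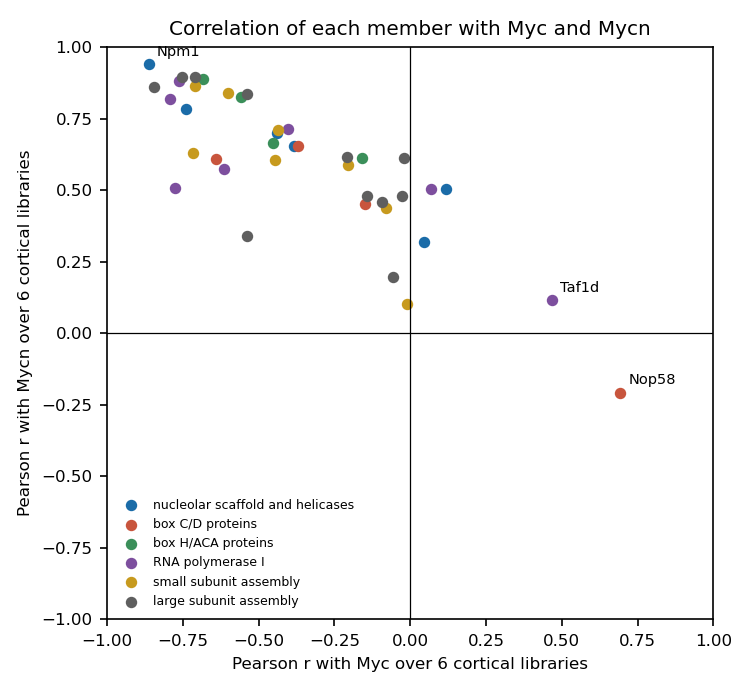
Pearson r of each member with Myc (horizontal) and with Mycn (vertical) over the 6 cortical libraries, on log2(CPM + 1), coloured by role. Most members lie at upper left, negative with Myc and positive with Mycn, and Nop58 lies alone at lower right with 0.69 and -0.21.

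No correlation of the members with Mycl or Max was computed. Mycl was at 20.5 CPM at E13.5 and 2.98, 2.32 and 1.51 at E15.5, E17.5 and NB. It was at 11.2 and 5.69 in adult cTEC, on 24 and 23 UMIs, and at 9.44 and 7.10 in adult mTEC (slope -0.16, adjusted p = 0.77). Max, the shared partner, was at 43.6, 51.0, 31.7 and 54.3 CPM from E13.5 to NB, at 66.0 and 59.2 in adult cTEC and at 54.4 and 31.1 in adult mTEC (slope 0.18, adjusted p = 0.21). Myc did not differ between cycling and resting cells beyond its error (-0.11, adjusted p = 0.58).

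Of the other genes of the pathway 110 were tested. By age 0 of the 110 passed in edgeR's quasi-likelihood test, beside 2.80% of tested genes lower and 4.78% higher. At an unadjusted p below 0.05, 19 were lower and 0 higher, beside 12.8% and 14.5% of tested genes, and the median slope was -0.11. In cycling cells 31 were higher and 2 lower, beside the 9.70% and 22.1% of all tested genes, with a median of 0.20. The exosome, which trims the precursor RNA, gave 6 of 11, led by Exosc8 at 1.42 (SE 0.10, adjusted p = 3.04e-07) and Exosc2 at 1.01 (SE 0.15, adjusted p = 0.000341). Tcof1 (treacle, which works with Ubtf on the ribosomal DNA) was higher by 0.93 (SE 0.13, adjusted p = 0.000223). Tex10 at -0.64 and Nop53 at -0.46, both on the large subunit list, were the 2 that were lower.

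Between the adult lineages 3 of the 110 were higher in cTEC and 2 lower, smaller shares than the 10.9% and 20.8% of all tested genes. Polr2l, a small subunit of all 3 nuclear polymerases, was at 135 and 127 CPM in cTEC against 45.1 and 76.5 in mTEC (1.09, adjusted p = 0.025). Rrp8 was at 45.6 and 35.1 against 16.7 and 16.2 CPM (1.21, adjusted p = 0.018), and Pno1 at 14.9 and 22.03 against 52.3 and 35.1 (-1.28, adjusted p = 0.018). Polr1e, a further RNA polymerase I subunit, was at 4.18 and 4.21 against 11.4 and 10.2 CPM (-1.42, adjusted p = 0.035). Tcof1 was higher by 1.18 (adjusted p = 0.034), mostly through adult cTEC 1, with 112.5 CPM against 27.0 in adult cTEC 2 and 22.4 and 24.0 in mTEC.

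Genes of the ribosomal proteins themselves, the products the pathway assembles, made up 26.1%, 24.7%, 26.9% and 15.4% of the UMIs from E13.5 to NB. They made up 13.3% and 19.5% in adult cTEC and 17.1% and 22.5% in adult mTEC, so data set 2 lay above data set 1 for each adult lineage. Of 85 tested by age, 2 were lower and 0 higher (2.80% and 4.78% of all tested genes), with a median slope of -0.27. At an unadjusted p below 0.05, 52 of the 85 were lower and 0 higher (12.8% and 14.5% of all tested genes), and with RLE scaling 7 passed. In cycling cells 4 of 86 were higher and 2 lower (9.70% and 22.1% of all tested genes), with a median of 0.03, where the members had 0.33.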

How the data were processed

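Cells were captured by the study with 10x Genomics Chromium v2 chemistry, and the deposited counts are whole UMI counts per gene and cell, raw per the file headers. The processing notes name bcl2fastq 2.17, STAR 2.5.1b, Cell Ranger 2.0.1 and mm10. The header of data set 2 names a later Cell Ranger. No normalization was made by the authors in these counts. Gene positions were taken from GENCODE M21 on GRCm38.

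Cells with over 5% mitochondrial UMIs or over 5000 genes were left out, as were clusters (2000 variable genes, 20 components, Leiden resolution 0.8) with the markers of thymocytes or parathyroid, 169 NB cells and 124 E13.5 cells at most. No doublet caller was run. Libraries shared few cell barcodes, at most 1.90% of the smaller library. UMIs were summed per library, or per library and cycling class (score above 0), and tested with edgeR 4.0.16 quasi-likelihood (TMM, filterByExpr, default setting, adjusted p below 0.05), with DESeq2 1.42.0 as an alternative, in R 4.3.3. Single libraries were compared by ratio with an exact conditional binomial 95% interval. UMIs are from the 3′ end, so they do not scale with gene length, and levels were compared between genes only to find the member with most UMIs of each role. Transgenic libraries were not analysed here.

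The members and lists were chosen with earlier results of these data known. Named with the value in every library were the members called by age, those with the largest slopes, lineage and cycling differences, and the most abundant of each role. On simulated counts with 200 changed genes, the age fit recovered 196 at a slope of 1 over 14341 genes, with 5.31% false calls. The lineage fit recovered 177 at a log2 difference of 2 over 15626 genes, with 4.32% false, and 0 at 0.5. The cycling fit recovered 115 at 0.5 over 16866 genes with 18.4% false, which were 10 of 125 calls above an average log2 CPM of 4. The interaction fit recovered 181 at 1 over 16866 genes with 20.6% false, 28 of 209 above that level. Calls in these last fits are therefore less certain for scarce genes.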

Additional observations from a re-analysis of the deposited data

Results flagged for a closer look

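Dkc1, the pseudouridine synthase of box H/ACA particles, was the only member of 40 whose cycling difference passed the test of a difference between adult and younger libraries (edgeR quasi-likelihood with 8 libraries), 0.74 higher on the log2 scale in the adult. Its cycling over resting ratios from E13.5 to NB were 1.65, 1.62, 1.80 and 1.68. In the adult it was 1.003 and 3.21 in cTEC and 2.90 and 2.80 in mTEC, so 3 of 4 adult libraries lay above all younger ones and adult cTEC 1, with 7 cycling cells, lay below them. The estimate kept its direction under each alternative that was run. It did not pass without adult mTEC 1, adult mTEC 2, E15.5, E17.5 or NB (adjusted p from 0.079 to 0.18), nor within the cortical line (0.58, adjusted p = 0.72).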

How the results depend on the processing

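The age calls among the members depended on the setting. Against 2 members lower, 0 passed with no filter on low counts, in resting cells, within data set 1 and for fetal against NB and adult libraries, 4 without the data set term and 8 by DESeq2. In resting cells the slopes of Npm1 and Polr1a were -0.37 and -0.35, against -0.45 and -0.41. Leaving out 1 library gave 0 to 1, namely Npm1 without NB and 0 without any other, and without E13.5 Nop58 rose with age (0.51). The other 7 settings gave 2 to 3, but Polr1a did not pass where adult cTEC was limited to cells with Psmb11 or Prss16. Between the adult lineages, against 2 lower, 0 passed by DESeq2 and in resting cells and 1 (Bop1) with the bias-adjusted quasi-likelihood test. Leaving out 1 library, which also drops the data set term and takes the lone sample to vary like the other lineage, gave 0 to 1, that 1 being Rcl1 without adult cTEC 2. Without the replicate block (the data set, which pairs cTEC with mTEC) the count was 2. In cycling cells, against 14 higher, the G2M list alone gave 9 and leaving out 1 library 6 (without E13.5) to 17 (without adult cTEC 2), with 9 without E15.5. The test of adult against younger cycling differences, 1 member, gave 15 with no filter, 8 by DESeq2, 2 with the bias-adjusted test, 22 for adult mTEC against the cortical line, 0 in the cortical line, and 0 to 16 leaving out 1 library (16 without adult cTEC 2, 7 without adult cTEC 1, 5 without E13.5). The summed E13.5 level over the adult cTEC mean, 1.19 on the log2 scale, was 0.80 without Npm1 and Ncl, 1.37 with ribosomal protein and mitochondrial genes out of the total and 0.84 in resting cells. No member called in a fit changed direction in any setting of that fit. Of all 40, at most 11 slopes by age (without E13.5), 6 lineage differences, 1 cycling difference and 22 adult cycling differences (cortical line only) did. The cause of these changes was not tested. The bias-adjusted test, the mTEC contrast and leaving out a cluster led by Hhex and Nkx2-1 were chosen after seeing the data. Depth was lowest in adult cTEC 1, where 3 UMIs made 1.39 CPM.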
